A study of Mus musculus with 19 samples.

Results

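A set of 10 genes of prostaglandin and leukotriene signalling were followed in mouse plantaris tendon, a tendon of the hindlimb, by RNA sequencing of bulk tissue. They were chosen by name, by their place in the pathway, from the 24972 genes of the deposited table, and all 10 were listed and tested: Ptgs1, Ptgs2, Ptges, Ptger1, Ptger2, Ptger3, Ptger4, Alox5, Alox5ap and Hpgd. The 19 libraries fall into 5 groups. Controls were Scx+ mice that received neither tamoxifen nor a growth stimulus (n = 3). The other 4 groups (n = 4 each) received tamoxifen and a growth stimulus, and were Scx+ or Scx- mice after 7 or 14 days. Scx encodes scleraxis, a transcription factor of the tendon lineage, and the study's title describes a targeted deletion of it. The labels give neither the alleles, the driver of the deletion, the strain, sex and age of the mice, nor the kind of growth stimulus. They do not say that the libraries of a group came from separate animals, so p-values measure the spread between these samples, which may be technical. No unstimulated Scx- group was included. In every comparison with the control, stimulus and tamoxifen cannot be told apart, and all 4 such comparisons share the 3 control libraries. Where a Scx- group is compared with the control, the deletion of Scx cannot be told apart from them either.

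Prostaglandins and leukotrienes are short-lived lipid signals made from arachidonic acid, a fatty acid that phospholipases release from membranes. The cyclooxygenases encoded by Ptgs1 and Ptgs2 turn it into a precursor of all prostaglandins, Ptges encodes the inducible synthase of prostaglandin E2, and Ptger1 to Ptger4 encode the receptors EP1 to EP4 of that prostaglandin. Alox5 encodes the lipoxygenase that starts leukotriene synthesis, Alox5ap the membrane protein that presents arachidonic acid to it, and Hpgd the dehydrogenase that inactivates prostaglandins; in tendon, prostaglandin E2 is known as a signal of loading and inflammation.

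Values are the authors' scaled signal per gene, rescaled here between libraries, and are called rescaled signal. Library totals ran from 36577650 to 79768349 units, with the 3 controls highest, and the read depth behind them is unknown. Scx stood between 316.6 and 588.9 in the controls, between 2082.3 and 7993.1 in stimulated Scx+ libraries and between 1.7 and 17.1 in Scx- libraries, as labelled. Of 12 skeletal muscle fibre markers, none was at 0 in a whole group, and together they took 21.9 to 26.2% of the control signal, 0.0282 to 7.64% in stimulated Scx+, and, in Scx-, from 0.309 to 5.14% at day 7 and from 3.74 to 16.7% at day 14. The 10 tendon lineage markers took 0.28 to 0.921% in controls and 1.19 to 9.86% elsewhere, with none at 0 in a whole group. Scaling by library totals shifted the median log2 change of all genes against the control from 0.12 to 0.18 up to 0.58 to 0.83. It raised the share of higher genes among those called from 55.1% to 78.6%, 55.3% to 79.9%, 55.5% to 81.9% and 58.2% to 84.1% for Scx+ day 7, Scx+ day 14, Scx- day 7 and Scx- day 14. On the deposited scale the last was 35.2%.

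Promoter windows are shown for Ptges, Ptgs2 and Ptger4, the members with the smallest adjusted p in Scx+ at day 7. RefSeq (GRCm38.p6) held a promoter for 8 of the 10 members. Each window runs from 250 bases before to 30 bases after the annotated start, 5′ to 3′ on the gene's strand. The windows are chr1:150099781-150100060 (plus strand) for Ptgs2, chr2:30903268-30903547 (minus strand) for Ptges and chr15:5244158-5244437 (minus strand) for Ptger4. Capitals mark matches on either strand to a set of motifs. The core of the cyclic AMP response element was searched as TGACG. For the E-box, a site of helix-loop-helix factors, the form CACGTG is marked. Its general form, CANNTG, was searched as well and is not marked. For the C/EBP family the letters were TTNNGNAA. The GC box, known as a site of Sp factors, was searched as GGGCGG. The box of the factor NF-Y was searched as CCAAT. The TATA box, where the transcription machinery assembles, was searched as TATAAA, and an NF-kB motif of 10 letters was searched as well.
Ptgs2: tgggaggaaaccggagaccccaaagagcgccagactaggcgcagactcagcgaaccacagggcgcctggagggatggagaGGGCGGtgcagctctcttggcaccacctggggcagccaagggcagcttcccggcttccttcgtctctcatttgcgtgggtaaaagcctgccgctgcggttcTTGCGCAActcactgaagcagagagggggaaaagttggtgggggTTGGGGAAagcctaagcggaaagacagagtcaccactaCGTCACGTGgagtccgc
Ptges: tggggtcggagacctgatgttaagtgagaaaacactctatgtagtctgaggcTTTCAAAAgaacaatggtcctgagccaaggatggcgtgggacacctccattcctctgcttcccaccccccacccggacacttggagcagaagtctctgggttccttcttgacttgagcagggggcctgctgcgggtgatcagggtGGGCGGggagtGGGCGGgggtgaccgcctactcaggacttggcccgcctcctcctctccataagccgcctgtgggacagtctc
Ptger4: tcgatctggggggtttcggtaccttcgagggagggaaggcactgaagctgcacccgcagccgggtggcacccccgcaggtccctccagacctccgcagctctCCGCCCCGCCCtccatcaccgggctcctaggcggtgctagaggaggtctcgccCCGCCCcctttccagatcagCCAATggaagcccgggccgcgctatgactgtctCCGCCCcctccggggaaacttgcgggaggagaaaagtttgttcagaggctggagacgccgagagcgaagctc
The Ptgs2 window held a GC box at -170 to -165, C/EBP matches at -69 to -62 and -25 to -18, and a TGACG match on the minus strand at 14 to 18 that overlaps CACGTG at 17 to 22, counted from 1 at the start. Ptges had a C/EBP match at -198 to -191 and GC boxes at -53 to -48 and -42 to -37. Ptger4 had 4 GC boxes, at -148 to -143, -143 to -138, -95 to -90 and -42 to -37, the first pair sharing 1 base, and CCAAT at -75 to -71. The general E-box letters CANNTG matched in Ptgs2 at -147 to -142, -103 to -98 and 17 to 22. They matched in Ptges at -121 to -116 and not in Ptger4. None of the 3 windows matched the NF-kB or TATA box letters. Of 32851 windows of this length, 19.9% held the cyclic AMP element core, 6.79% the CACGTG and 70.1% the CANNTG form of the E-box. The C/EBP letters were in 39.3%, a GC box in 34.7%, the NF-Y box in 36.1%, the TATA box in 13.1% and the NF-kB letters in 1.37%. These matches describe letters and were not tested as binding sites. The Ptges start in RefSeq lies inside the longer gene span that GENCODE gives.

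Against the control, Ptgs2, Ptges, Ptger1, Ptger2 and Ptger4 were higher and Ptgs1 and Ptger3 lower in all 4 stimulated groups by limma. The authors' deposited table has these below 0.05 too, except Ptger1 in Scx- at day 14 (0.46 ± 0.30, SE, adjusted p = 0.262). Among the other members it differs from limma in 3 calls, with Alox5 not called in Scx- at day 7 (-0.92 ± 0.51, adjusted p = 0.122) and called in Scx+ at day 14 (-0.96 ± 0.35, adjusted p = 0.0148), and Hpgd called in Scx+ at day 7. In Scx+ at day 7, 9 of the 10 members passed an adjusted p of 0.05, 6 higher and 3 lower, where 61.3% of the 16619 tested genes passed (33.8% higher and 27.5% lower). In Scx- at day 7 it was again 9 (6 higher, 3 lower; 58.2% of all genes, 32.3% higher and 25.9% lower). At day 14 it was 8 in Scx+ (6 higher, 2 lower; 55.9%, 30.9% higher and 25.0% lower) and 8 in Scx- (5 higher, 3 lower; 43.8%, 25.5% higher and 18.3% lower). The median log2 change of the members was 0.97, 1.14, 0.73 and 0.63 in that order, beside 0.18, 0.14, 0.15 and 0.12 over all tested genes. Against backgrounds this high, the counts were not read as particular to the members, and the values of each gene follow. Libraries did not overlap the controls for 9, 8, 8 and 7 members in the same order, and for 62.3%, 58.1%, 51.9% and 38.2% of all tested genes. Fewer cells of a type and less RNA per cell cannot be told apart in bulk tissue.

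**Figure D1:**
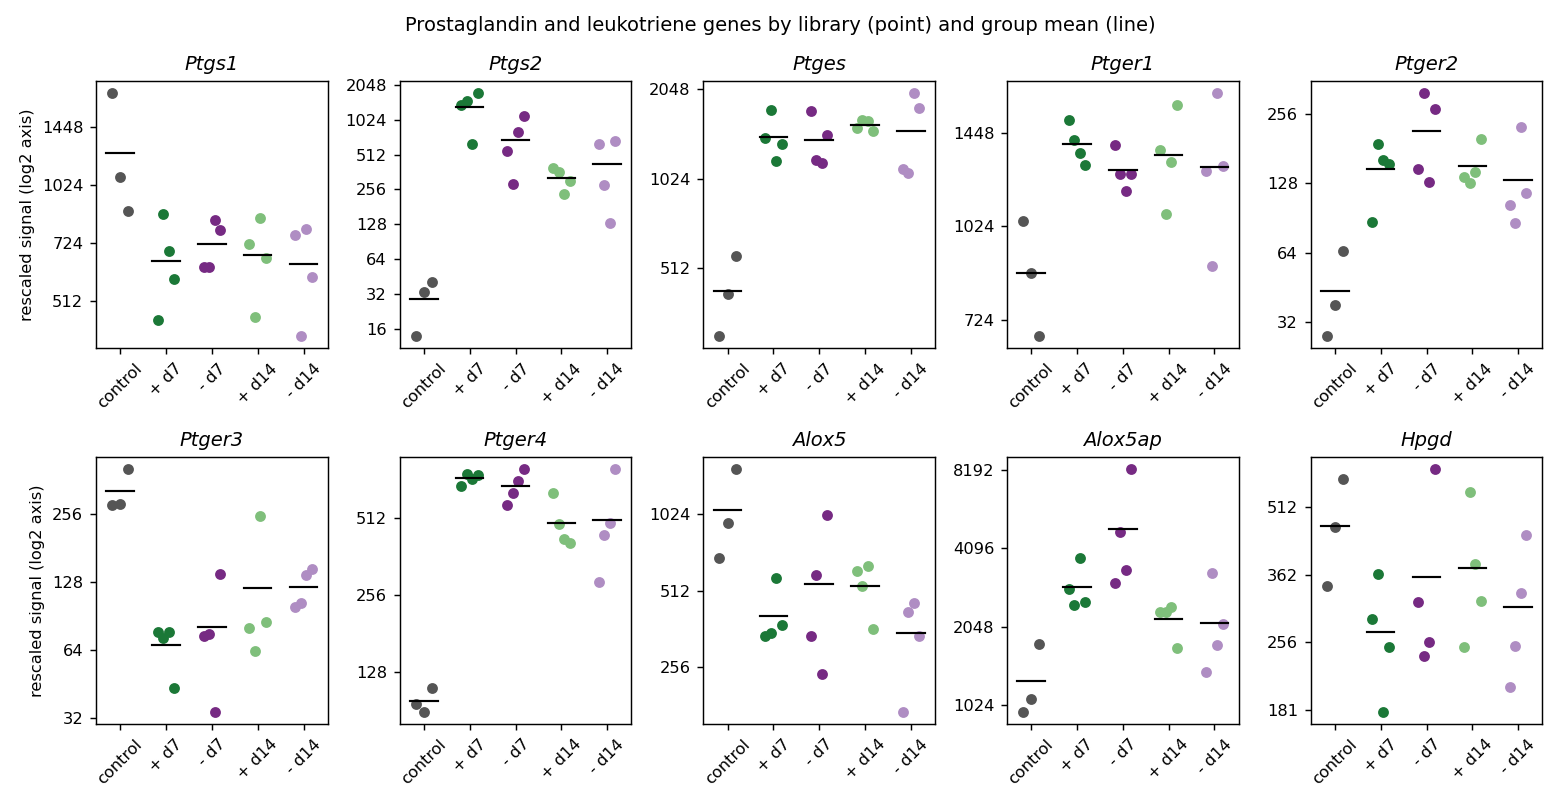
Rescaled signal of each member (log2 axis) in every library (points) by group, with group means (lines). The labels + and - are Scx+ and Scx-, and d7 and d14 are days 7 and 14. Ptgs2, Ptges and Ptger4 lie above all 3 controls in all 16 stimulated libraries, and Ptger3 and Ptgs1 below them.

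Ptgs2 (chromosome 1, 150100031 to 150108227, 10 exons), the inducible cyclooxygenase gene, had the largest change of the members. It stood at 13.8, 32.9 and 40.4 in the controls. In Scx+ at day 7 it reached 1372.5, 1486.0, 635.7 and 1735.3, and in Scx- at day 7 546.2, 286.7, 801.6 and 1102.0. At day 14 it held 393.0, 359.7, 234.4 and 303.2 in Scx+ and 625.7, 279.3, 130.5 and 671.3 in Scx-. All 16 stimulated libraries thus lay above every control, the lowest of them at 130.5 in Scx- at day 14. The mean rose from 29.0 ± 13.7 (SD, n = 3) to 1307 ± 473 in Scx+ at day 7 (SD, n = 4), 42.9-fold by the fit of log2(value + 2). In log2 units this was 5.42 ± 0.54 (SE, 95% interval 4.28 to 6.57, limma adjusted p = 5.62e-07), place 138 from the highest of 16619 genes. The rise was 4.42 ± 0.54 in Scx- at day 7 (21.4-fold, adjusted p = 4.34e-06), 3.48 ± 0.54 in Scx+ at day 14 (11.1-fold, adjusted p = 5.66e-05) and 3.63 ± 0.54 in Scx- at day 14 (12.4-fold, adjusted p = 8.28e-05).

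Ptgs1 (chromosome 2, 36230426 to 36252272, 11 exons), the cyclooxygenase gene that most tissues keep on, moved the other way. Controls held 1779.2, 1077.3 and 875.3. Day 7 values were 455.4, 863.5, 689.7 and 582.5 in Scx+ and 625.8, 627.8, 832.7 and 784.5 in Scx-. Day 14 values were 721.4, 464.2, 839.4 and 661.3 in Scx+ and 759.3, 413.6, 788.6 and 589.1 in Scx-. Every stimulated library was below the lowest control, by little in the nearest case (863.5 against 875.3). Ptgs1 fell by 0.91 ± 0.28 log2 units in Scx+ at day 7 (SE, limma adjusted p = 0.00931), by 0.74 ± 0.28 in Scx- at day 7 (adjusted p = 0.0316), by 0.85 ± 0.28 in Scx+ at day 14 (adjusted p = 0.0157) and by 0.94 ± 0.28 in Scx- at day 14 (adjusted p = 0.0119). None of these calls held with scaling by library totals (Ptgs1 at -0.24, -0.04, -0.25 and -0.46, adjusted p from 0.220 to 0.916) or without control replicate 1 (-0.63, -0.46, -0.57 and -0.66, adjusted p = 0.0701, 0.184, 0.105 and 0.0776). The Scx+ day 14 call also ended without its replicate 2 (-0.69, adjusted p = 0.0543), that of Scx- day 7 without its replicate 1 or 2 (-0.68 each, adjusted p = 0.0715 and 0.0710), and that of Scx- day 14 in a fit of that group and the control alone (-0.94, adjusted p = 0.0596).

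Per length of transcript, the ratio of Ptgs2 to Ptgs1 signal went from 0.005, 0.0196 and 0.0297 in the controls to 1.94, 1.11, 0.593 and 1.92 in Scx+ at day 7. It was 0.562, 0.294, 0.62 and 0.904 in Scx- at day 7, 0.351, 0.499, 0.18 and 0.295 in Scx+ at day 14 and 0.531, 0.435, 0.107 and 0.734 in Scx- at day 14. The inducible gene thus exceeded the other in 3 libraries, all of Scx+ at day 7. Scx- at day 7 overlapped each of the other stimulated groups in this ratio, while Scx+ at day 7 lay wholly above Scx+ at day 14. This ratio is taken within a library and does not depend on the scaling between libraries.

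Ptges (chromosome 2, 30889471 to 30929863, 3 exons), the inducible prostaglandin E synthase gene, was higher by a similar amount at both days. It was 302.0, 417.9 and 563.4 in the controls, and 1397.6, 1747.6, 1170.2 and 1337.5 in Scx+ at day 7. Scx- at the same day had 1733.6, 1178.5, 1157.0 and 1435.0. A week later the values were 1517.0, 1612.9, 1604.1 and 1481.1 in Scx+ and 1106.6, 1071.1, 1985.0 and 1774.4 in Scx-. No stimulated library reached down to the controls, and the 4 Scx+ libraries at day 14 were the closest together, at 1554 ± 65.0 (SD, n = 4). Ptges rose by 1.75 ± 0.24 log2 units in Scx+ at day 7 (SE, 3.36-fold, limma adjusted p = 8.64e-06) and 1.90 ± 0.24 at day 14 (3.73-fold, adjusted p = 6.40e-06). In Scx- the rise was 1.71 ± 0.24 (3.26-fold, adjusted p = 1.26e-05) and 1.78 ± 0.24 (3.44-fold, adjusted p = 2.60e-05).

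**Figure D2:**
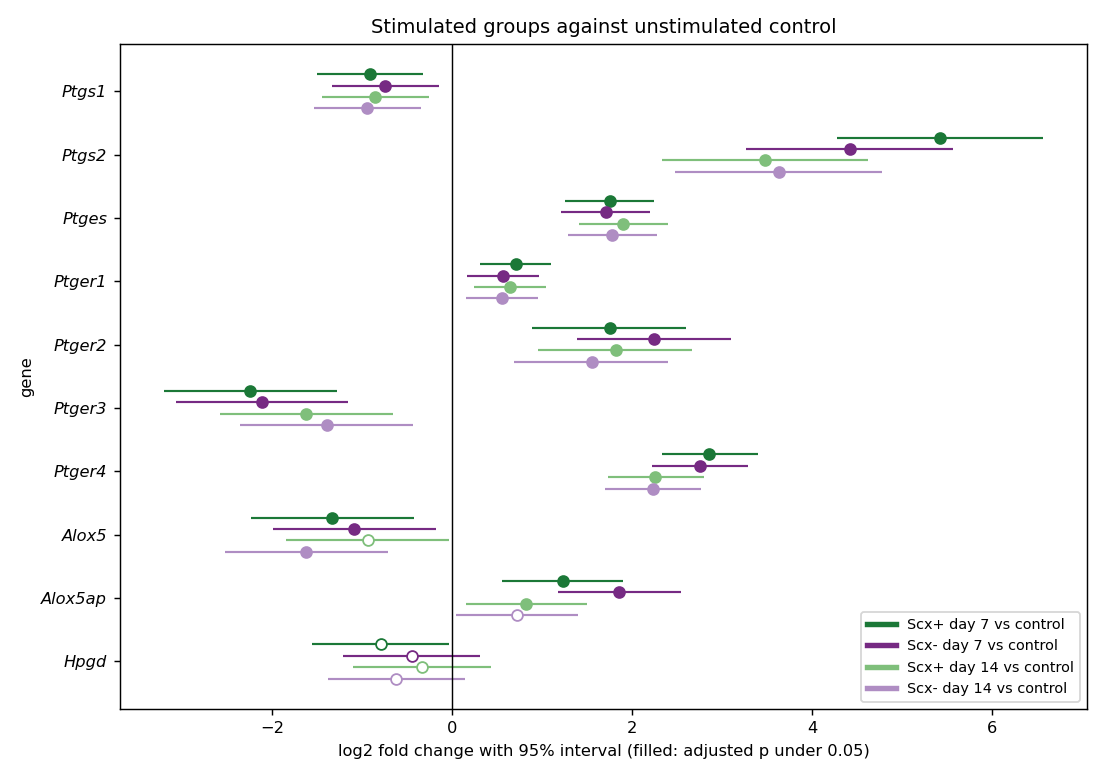
Log2 fold change of each member against the unstimulated control in the 4 stimulated groups, with 95% intervals from limma. Filled points passed an adjusted p of 0.05. Ptgs2 has the largest rises (3.48 to 5.42) and Ptger3 falls of -1.39 to -2.24, while Hpgd did not pass in any group.

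Among the EP receptors, Ptger4 and Ptger2, whose products raise cyclic AMP, were higher, and Ptger3, whose product mainly lowers it, was lower. Ptger4 (chromosome 15, 5206661 to 5244187, 3 exons) stood at 95.9, 89.5 and 111.0 in the controls. Day 7 brought it to 683.4, 760.0, 723.1 and 748.5 in Scx+ and 574.8, 640.0, 713.7 and 789.9 in Scx-. Day 14 values were 640.0, 482.9, 421.2 and 406.2 in Scx+ and 286.3, 438.0, 489.4 and 794.1 in Scx-. The lowest stimulated library, at 286.3, was above the highest control, and Scx+ at day 7 varied little (729 ± 33.9, SD, n = 4). The rise was 2.86 ± 0.25 log2 units in Scx+ at day 7 (SE, 7.27-fold, limma adjusted p = 1.54e-07), 2.75 ± 0.25 in Scx- at day 7 (6.74-fold, adjusted p = 2.31e-07), 2.26 ± 0.25 in Scx+ at day 14 (4.80-fold, adjusted p = 2.55e-06) and 2.23 ± 0.25 in Scx- at day 14 (4.70-fold, adjusted p = 5.95e-06). Of 6648 exon bases of Ptger4, 82 are shared with Ttc33 and 1015 with the pseudogene Gm15937, both on the other strand.

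Ptger2 (chromosome 14, 44988195 to 45003820, 2 exons) was among the least abundant members, at 27.8, 37.8 and 65.1 in the controls. It was 86.7, 189.0, 161.0 and 156.0 in Scx+ and 147.8, 315.6, 130.4 and 270.2 in Scx- at day 7, and 136.8, 128.4, 142.8 and 199.8 in Scx+ and 103.1, 86.6, 225.2 and 116.4 in Scx- at day 14. All stimulated libraries exceeded the controls. Ptger2 rose by 1.75 ± 0.41 in Scx+ at day 7 (SE, limma adjusted p = 0.00129), 2.24 ± 0.41 in Scx- at day 7 (adjusted p = 1.75e-04), 1.82 ± 0.41 in Scx+ at day 14 (adjusted p = 0.00117) and 1.55 ± 0.41 in Scx- at day 14 (adjusted p = 0.00552). In Scx+ at day 7 the call of Ptger2 ended with the muscle markers as a covariate (1.47, adjusted p = 0.0979), and in Scx- at day 14 in a fit of that group and the control alone (1.54, adjusted p = 0.0536).

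Ptger3 (chromosome 3, 157566892 to 157645888, 3 exons) went from 280.1, 283.7 and 405.1 in the controls to 77.4, 72.7, 76.8 and 43.4 in Scx+ and 74.3, 75.7, 34.2 and 139.3 in Scx- at day 7. At day 14 it was 80.4, 63.3, 251.9 and 85.3 in Scx+ and 99.1, 103.9, 137.9 and 145.8 in Scx-. No stimulated library reached the controls, though Scx+ day 14 replicate 3, at 251.9, came close. Ptger3 fell by 2.24 ± 0.46 in Scx+ at day 7 (SE, limma adjusted p = 4.39e-04), by 2.11 ± 0.46 in Scx- at day 7 (adjusted p = 8.29e-04), by 1.62 ± 0.46 in Scx+ at day 14 (adjusted p = 0.00640) and by 1.39 ± 0.46 in Scx- at day 14 (adjusted p = 0.0205). Both day 14 calls of Ptger3 ended with scaling by library totals (-1.01 and -0.92, adjusted p = 0.0736 and 0.117). That of Scx- at day 14 also ended without control replicate 3 (-1.23, adjusted p = 0.0729), without Scx- day 14 replicates 1 and 2 together (-1.16, adjusted p = 0.0972) and with sample quality weights (-1.24, adjusted p = 0.106).

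Set against each other per length within a library, Ptger4 stood at 0.325, 0.3 and 0.26 of Ptger3 in the controls. Ptger4 exceeded Ptger3 by 8.39 to 16.4 times in the Scx+ and 5.39 to 19.8 times in the Scx- libraries of day 7. Those of day 14 gave 1.59 to 7.57 and 2.75 to 5.18 times. The order of this receptor pair was thus the opposite of that in the controls in all 16 stimulated libraries.

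Ptger1 (chromosome 8, 83666678 to 83672753, 3 exons) showed small rises: controls held 1043.0, 860.7 and 681.0, and stimulated libraries 1072.1 to 1678.1 apart from Scx- day 14 replicate 2, at 882.7. The change was 0.71 ± 0.19 in Scx+ at day 7 (SE, limma adjusted p = 0.00383), 0.57 ± 0.19 in Scx- at day 7 (adjusted p = 0.0164), 0.64 ± 0.19 in Scx+ at day 14 (adjusted p = 0.00872) and 0.55 ± 0.19 in Scx- at day 14 (adjusted p = 0.0262). Only the last group overlapped the controls. The labels do not say whether the libraries kept the strand, so the signal of Ptger1, as of any member, cannot be told apart from that of genes overlapping it on the other strand, and its values are uncertain. Every call of Ptger1 ended with the muscle markers as a covariate (0.47, 0.41, 0.49 and 0.48, adjusted p = 0.245, 0.177, 0.106 and 0.0618 for Scx+ day 7, Scx- day 7, Scx+ day 14 and Scx- day 14), and those of the last 3 without control replicate 3 (0.39, 0.46 and 0.38, adjusted p = 0.112, 0.0657 and 0.149). That of Scx- at day 14 also ended on the deposited scale (0.21, adjusted p = 0.373), in a fit of its own groups (0.55, adjusted p = 0.148) and without control replicate 2 or Scx- day 14 replicate 3 or 4 (0.56, 0.41 and 0.54, adjusted p = 0.0571, 0.0883 and 0.0543). Exons of Ptger2 and Alox5ap share 246 and 189 bases with antisense genes, and those of Ptgs1 share 148 with Gm43621 on the other strand.

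On the leukotriene side, the lipoxygenase gene was lower and the gene of its partner protein higher. Alox5 (chromosome 6, 116410077 to 116461178, 14 exons) stood at 687.6, 946.1 and 1544.6 in the controls, 337.6, 348.0, 573.7 and 373.7 in Scx+ at day 7 and 338.7, 591.6, 240.1 and 1012.1 in Scx- at day 7. At day 14 it was 608.9, 531.9, 641.0 and 361.0 in Scx+ and 170.3, 422.1, 459.0 and 338.8 in Scx-. Of the stimulated libraries only Scx- day 7 replicate 4, at 1012.1, lay within the range of the controls. Alox5 fell by 1.33 ± 0.43 log2 units in Scx+ at day 7 (SE, limma adjusted p = 0.0129), by 1.09 ± 0.43 in Scx- at day 7 (adjusted p = 0.0379) and by 1.62 ± 0.43 in Scx- at day 14 (adjusted p = 0.00599). In Scx+ at day 14 the difference of -0.93 ± 0.43 did not pass (95% interval -1.84 to -0.03, adjusted p = 0.0730). Both day 7 calls of Alox5 ended with scaling by library totals (-0.65 and -0.39, adjusted p = 0.204 and 0.453) and without control replicate 3 (-1.03 and -0.79, adjusted p = 0.0755 and 0.169). That of Scx- at day 7 also ended without control replicate 2 (-1.14, adjusted p = 0.0674), Scx- day 7 replicate 1 (-0.93, adjusted p = 0.0967) or replicate 3 (-0.77, adjusted p = 0.127), and when fitted with the control alone (-1.06, adjusted p = 0.0998). The Scx+ day 14 difference of Alox5 passed on the deposited scale (-1.03, adjusted p = 0.0483), fitted with the control alone (-0.92, adjusted p = 0.0300) and without control replicate 1 (-1.21, adjusted p = 0.0429).

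Alox5ap (chromosome 5, 149264767 to 149288153, 5 exons) was the most abundant member per length in all 5 groups. Controls held 967.9, 1081.3 and 1766.6. At day 7 it was 2863.6, 2485.2, 3752.7 and 2556.0 in Scx+ and 3019.4, 4713.8, 3373.7 and 8246.0 in Scx-, and at day 14 2331.0, 2327.0, 2437.5 and 1693.4 in Scx+ and 1379.4, 3279.1, 1749.4 and 2101.8 in Scx-. All day 7 libraries were above the controls, whereas at day 14 1 Scx+ and 2 Scx- libraries fell within their range. Alox5ap rose by 1.23 ± 0.32 in Scx+ at day 7 (SE, 2.34-fold, limma adjusted p = 0.00326), by 1.86 ± 0.32 in Scx- at day 7 (3.63-fold, adjusted p = 1.14e-04) and by 0.82 ± 0.32 in Scx+ at day 14 (1.77-fold, adjusted p = 0.0375). In Scx- at day 14 the difference of 0.72 ± 0.32 did not pass (95% interval 0.04 to 1.40, adjusted p = 0.0792). The Scx+ day 14 call of Alox5ap ended without control replicate 1 or 2 (0.65 and 0.73, adjusted p = 0.146 and 0.117), and without Scx+ day 14 replicate 1, 2 or 3 (0.80, 0.79 and 0.77, adjusted p = 0.0718, 0.0708 and 0.0761). The Scx- day 14 difference passed with library totals (1.19, adjusted p = 0.00565), without control replicate 3 (0.97, adjusted p = 0.0407) and without Scx- day 14 replicate 1 (0.90, adjusted p = 0.0368). The Scx+ day 14 call also ended on the deposited scale (0.73, adjusted p = 0.0612) and, as did that of Scx+ at day 7, with the muscle markers as a covariate (0.68 and 0.99, adjusted p = 0.194 and 0.153).

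Per length within a library, Alox5ap was 3.17, 2.58 and 2.58 times Alox5 in the controls. The ratio was 14.7 to 19.1 in Scx+ and 18 to 31.7 in Scx- at day 7, 8.57 to 10.6 in Scx+ and 8.59 to 18.3 in Scx- at day 14. No stimulated library came near the controls.

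Both leukotriene genes are known in macrophages, so the markers of those cells were read beside them. The 12 macrophage and monocyte markers, none of them at 0 in a whole group, summed to 26795 to 58886 in the controls, 105812 to 157551 in Scx+ and from 131151 to 317636 in Scx- libraries of day 7. Those of day 14 had 76548 to 121738 in Scx+ and 47912 to 132236 in Scx-. Against the control 11, 11, 9 and 8 of the 12 were higher in Scx+ day 7, Scx- day 7, Scx+ day 14 and Scx- day 14, and none was lower. Per 1000 units of this sum, Alox5ap was 29, 40.4 and 30 in the controls and 17.8 to 28.8 in all stimulated libraries. Alox5 on that scale was 20.6, 35.3 and 26.2 in the controls and 1.57 to 6.24 in the stimulated libraries. Ptgs2 went from 0.415 to 1.23 in the controls to 1.33 to 14.0. The library with the highest sum, Scx- day 7 replicate 4 at 317636, also had the highest Alox5ap.

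**Figure D3:**
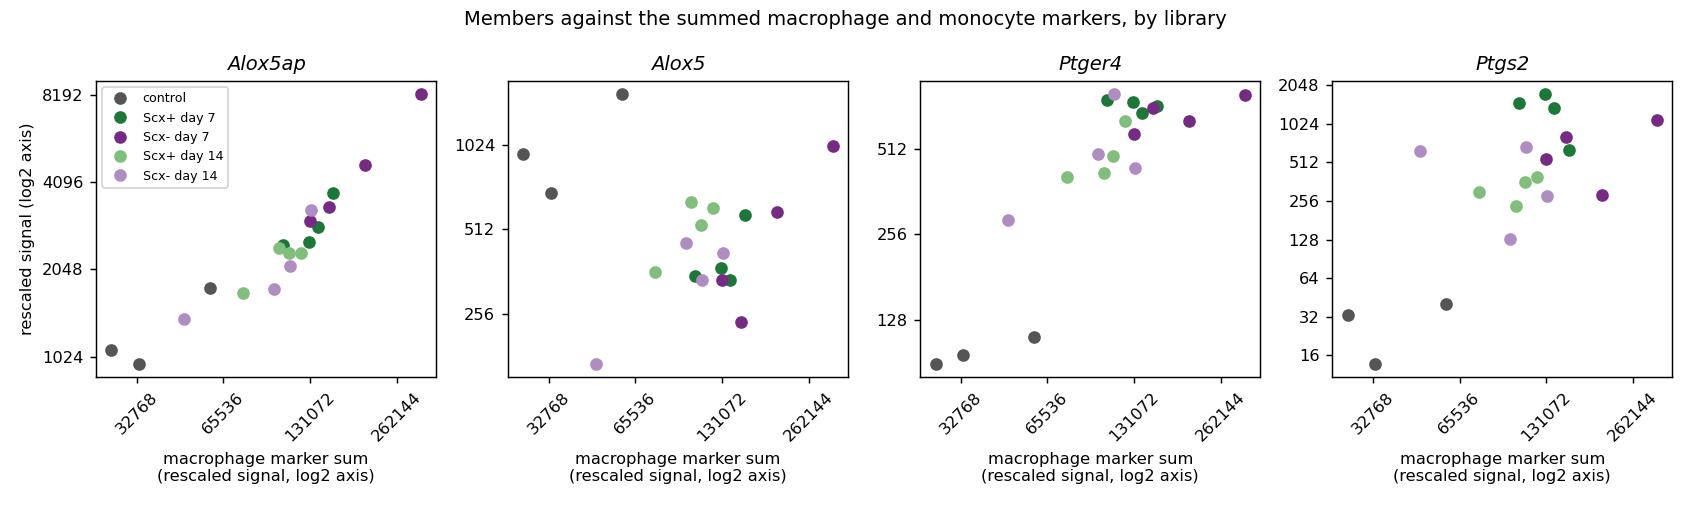
Rescaled signal of Alox5ap, Alox5, Ptger4 and Ptgs2 against the summed signal of 12 macrophage and monocyte markers, both on log2 axes, with a point per library coloured by group. Alox5ap lies along the marker sum, from 967.9 in a control to 8246.0 in Scx- day 7 replicate 4, while Alox5 is high in the 3 controls, where the sum is 58886 or less.

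With the mean of these markers as a covariate, Alox5ap turned to -0.78, -0.86, -0.51 and -0.45 against the control in Scx+ day 7, Scx- day 7, Scx+ day 14 and Scx- day 14, none of which passed in limma (adjusted p = 0.109, 0.248, 0.141 and 0.190). Alox5 was then lower in all 4, by -3.88, -4.55, -2.64 and -3.10 (adjusted p = 4.49e-04, 0.00377, 3.27e-04 and 6.93e-05). Ptgs2 stayed at 5.40, 4.39, 3.47 and 3.62, Ptges at 1.49, 1.36, 1.73 and 1.63 and Ptger4 at 1.90, 1.45, 1.62 and 1.67. These 3 passed in all groups but Scx- day 7 (adjusted p = 0.0937, 0.196 and 0.142 there). Ptgs1 (-0.14, 0.30, -0.34 and -0.49) and Ptger2 (0.86, 1.04, 1.22 and 1.03) passed in none. Ptger1 and Ptger3 passed in the same 3 groups, and in Scx- at day 7 were at 1.22 and -3.39 (adjusted p = 0.136 and 0.103). The markers differ between the groups themselves, and this covariate raised the standard error of Ptgs2 in Scx- at day 7 from 0.54 to 1.43.

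Other cells that use these lipids were low or moved too. The 9 neutrophil markers summed to 116 to 216 in the controls, with Retnlg, Ltf and Ngp at 0 there, and to 434 to 2413 in stimulated libraries. The 7 platelet markers summed to 2147 to 3907 in the controls, with Gp6 at 0, and 2112 to 8643 elsewhere. The 8 mast cell markers summed to 610 to 1698 and 419 to 1465. All 7 adipocyte markers were lower in all 4 groups, with sums of 110786 to 163269 in the controls and 2939 to 41770 elsewhere, beside the falls of Ptger3, Alox5 and Ptgs1. The part of any of these cells in the changes of the members was not tested.

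Hpgd (chromosome 8, 56294585 to 56321043, 7 exons), the gene of prostaglandin breakdown, passed in none of the 9 comparisons as fitted. It was 341.6, 463.8 and 592.5 in the controls. At day 7 it was 288.6, 364.6, 179.3 and 250.0 in Scx+ and 314.8, 238.5, 256.9 and 623.9 in Scx-, and at day 14 250.4, 553.7, 382.9 and 316.5 in Scx+ and 203.8, 251.5, 330.5 and 444.4 in Scx-. Each stimulated group overlapped the controls, and Scx- day 7 replicate 4, at 623.9, was above them. The differences were -0.79 ± 0.36 in Scx+ at day 7 (SE, 95% interval -1.55 to -0.03, limma adjusted p = 0.0672), -0.45 ± 0.36 in Scx- at day 7 (-1.21 to 0.31, adjusted p = 0.291), -0.33 ± 0.36 in Scx+ at day 14 (-1.10 to 0.43, adjusted p = 0.446) and -0.62 ± 0.36 in Scx- at day 14 (-1.38 to 0.14, adjusted p = 0.172). Hpgd passed in Scx+ at day 7 with sample quality weights (-0.95, adjusted p = 0.0394), fitted with the control alone (-0.78, adjusted p = 0.0494), and without control replicate 1 (-1.0, adjusted p = 0.0421) or Scx+ day 7 replicate 2 (-0.94, adjusted p = 0.0452), and in Scx- at day 14 on the deposited scale (-0.96, adjusted p = 0.0380). In the authors' deposited table Hpgd in Scx+ at day 7 is at -0.77 ± 0.32 (adjusted p = 0.0308). The ratio of Ptges to Hpgd, per length within a library, was 0.408, 0.416 and 0.439 in the controls and 1.06 to 3.01 in all stimulated libraries, lowest in Scx- day 7 replicate 4.

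Ordered by mean signal per kilobase of transcript, the controls ran from Alox5ap (1017 ± 345, SD, n = 3) through Ptgs1 (434 ± 165), Alox5 (376 ± 156), Hpgd (277 ± 74.5), Ptger1 (184 ± 38.6), Ptges (117 ± 35.9) and Ptger3 (103 ± 22.6) to Ptger4 (29.8 ± 3.34), Ptger2 (11.8 ± 5.24) and Ptgs2 (6.52 ± 3.08). Only the steps below Alox5ap, Ptger3 and Ptger4 were free of overlap between neighbours. In Scx+ at day 7 the order was Alox5ap (2330 ± 466, SD, n = 4), Ptges (388 ± 66.6), Ptger1 (296 ± 21.3), Ptgs2 (294 ± 106), Ptgs1 (226 ± 60.3), Ptger4 (220 ± 10.2), Hpgd (161 ± 45.9), Alox5 (145 ± 39.5), Ptger2 (40.2 ± 11.8) and Ptger3 (21.5 ± 5.16). Neighbours from Ptges to Alox5 overlapped there. In the other 3 groups Alox5ap was again first (3867 ± 1907 in Scx- at day 7, 1756 ± 272 in Scx+ and 1701 ± 657 in Scx- at day 14, SD, n = 4 each), Ptges second and Ptgs2 eighth (154 ± 78.4, 72.4 ± 15.6 and 95.8 ± 59.3). Ptgs2 thus went from the last place to the fourth in Scx+ at day 7 and to the eighth in the other groups. The place of Ptger1 in these orders is uncertain for the reason given above.

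Scx- was compared with Scx+ at each day to ask whether loss of scleraxis changed these genes in the stimulated tendon. No member passed at day 7, where 0.770% of all tested genes did, and 1 (Alox5ap) had an unadjusted p under 0.05, as did 1207 of all 16619 genes. None passed at day 14, where 0.517% of genes did and no member had an unadjusted p under 0.05, as 2429 of all 16619 genes did. The authors' deposited table also has 0 members under an adjusted p of 0.05 at either day. All 10 members overlapped between the genotypes at both days, where 7.89% and 4.81% of all genes did not. The members' median log2 difference was 0.15 at day 7 and -0.10 at day 14, beside 0.02 over all tested genes at each day.

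Ptgs2 averaged 684 ± 349 in Scx- and 1307 ± 473 in Scx+ at day 7 (SD, n = 4 each), a difference of -1.0 ± 0.50 log2 units (SE, 95% interval -2.06 to 0.06, limma adjusted p = 0.737). That interval spans both a large fall and no change. At day 14 the difference was 0.15 ± 0.50 (-0.91 to 1.21, adjusted p = 0.916). Alox5ap was 4838 ± 2386 in Scx- and 2914 ± 583 in Scx+ at day 7, a difference of 0.63 ± 0.30 (0.01 to 1.26, adjusted p = 0.684), beside macrophage marker sums of 131151 to 317636 and 105812 to 157551. With those markers as a covariate it was -0.08 (adjusted p = 0.942). Ptges and Ptger4 were bounded more closely: Ptges differed by -0.04 ± 0.22 at day 7 (-0.50 to 0.42, adjusted p = 0.990) and -0.12 ± 0.22 at day 14 (-0.58 to 0.34, adjusted p = 0.828), and Ptger4 by -0.11 ± 0.23 (-0.60 to 0.38, adjusted p = 0.971) and -0.03 ± 0.23 (-0.52 to 0.46, adjusted p = 0.971). Alox5 differed by 0.24 ± 0.40 at day 7 (-0.60 to 1.07, adjusted p = 0.955) and -0.68 ± 0.40 at day 14 (-1.52 to 0.15, adjusted p = 0.421). For the other 5 members the differences lay between -0.29 and 0.49.

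**Figure D4:**
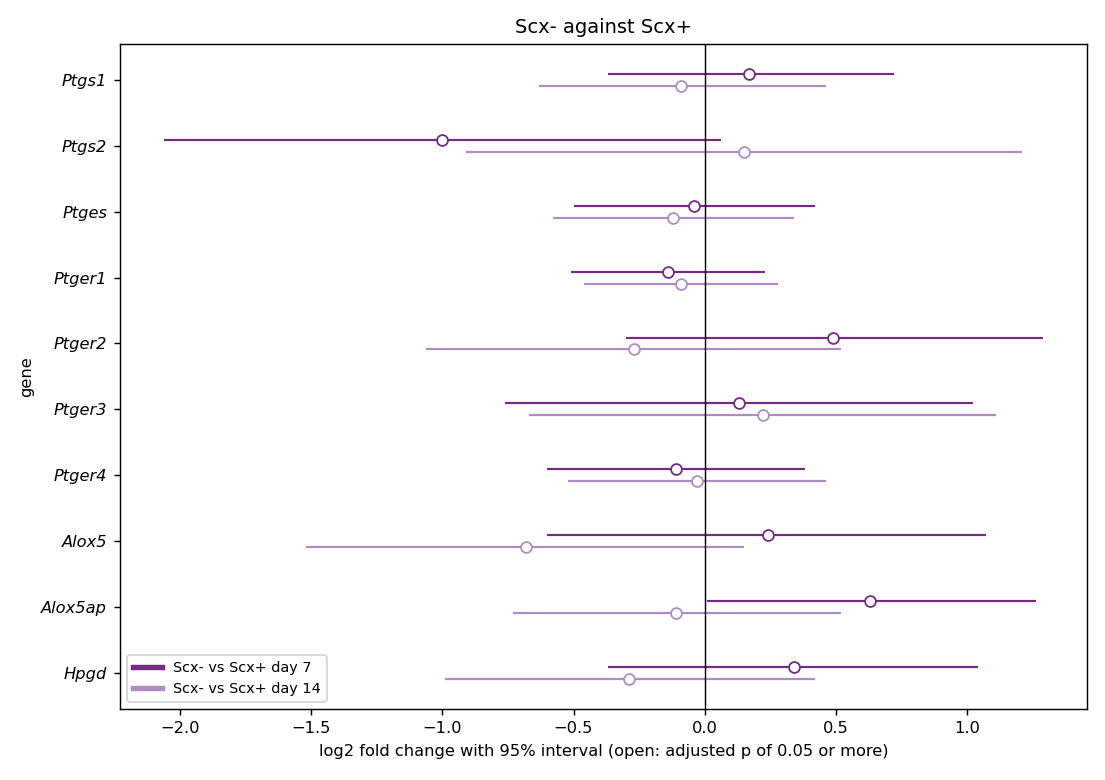
Log2 fold change of each member in Scx- against Scx+ at day 7 and day 14, with 95% intervals from limma. All points are open because none passed, and the widest intervals are those of Ptgs2 (-2.06 to 0.06 at day 7 and -0.91 to 1.21 at day 14).

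The genotype effect at day 14 less that at day 7 was also tested. No member passed by limma (0.0181% of all genes did), with 0 at an unadjusted p under 0.05 (721 of all 16619 genes were), and the authors' table holds no such comparison. It was 1.16 ± 0.71 for Ptgs2 (SE, 95% interval -0.35 to 2.66), -0.92 ± 0.56 for Alox5 (-2.10 to 0.26), -0.74 ± 0.42 for Alox5ap (-1.63 to 0.15) and -0.76 ± 0.53 for Ptger2 (-1.88 to 0.36), with an adjusted p of 1 each. The members' median was -0.17, beside 0.01 over all genes.

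Day 14 was compared with day 7 within each genotype to ask how the response changed with time. In Scx+ no member passed by limma, where 0.0301% of all genes did. An unadjusted p under 0.05 was found for 2 members and for 1758 of all 16619 genes. Ptgs2 was lower in all 4 day 14 libraries than in any at day 7, with a difference of -1.95 ± 0.50 (SE, 95% interval -3.01 to -0.88; unadjusted p = 0.00120, adjusted p = 0.174). Ptger4 was lower at day 14 in all 4 as well, at -0.60 ± 0.23 (-1.09 to -0.11, adjusted p = 0.350). So was Alox5ap, at -0.40 ± 0.30 (-1.03 to 0.23, adjusted p = 0.693). Groups did not overlap for 9.90% of all genes in this comparison, 6.11% lower and 3.78% higher. The authors' deposited table has Ptgs2 at -2.01 ± 0.30 (SE, adjusted p = 4.07e-08) and Ptger4 at -0.57 ± 0.19 (adjusted p = 0.0471), the only 2 members under 0.05 there, and 796 genes in all. The fold of Ptgs2 is thus alike in both and the call differs. With sample quality weights in limma, Ptgs2 passed (-1.83, adjusted p = 0.0451).

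In Scx- 1 member passed, Alox5ap, lower at day 14 by -1.14 ± 0.30 (SE, 2.21-fold lower, limma adjusted p = 0.0323), where 5.25% of all genes passed (3.86% lower). An unadjusted p under 0.05 was found for 2 members and for 3634 of all 16619 genes. The groups of Alox5ap overlapped. The authors' table has it at -1.12 ± 0.39 (adjusted p = 0.0496). Beside it, 9 of the 12 macrophage and monocyte markers were lower and none higher, with a median of -1.38 for that list. With those markers as a covariate Alox5ap was at 0.41 (adjusted p = 0.703). The call also ended with the muscle markers as a covariate (-1.06, adjusted p = 0.104) and when only these groups were fitted (-1.12, adjusted p = 0.153). It ended as well when a single library was left out, namely replicate 2 or 4 of Scx- at day 7, or 1 or 3 at day 14 (-1.12, -0.85, -0.96 and -1.07, adjusted p = 0.0889, 0.122, 0.121 and 0.0577), as did leaving out Scx- day 14 replicates 1 and 2 together (-1.22, adjusted p = 0.0788). Ptgs2 in Scx- was at -0.79 ± 0.50 (95% interval -1.85 to 0.27, adjusted p = 0.375) and Ptger4 at -0.52 ± 0.23 (-1.01 to -0.03, adjusted p = 0.204). Ptger4 passed without Scx- day 14 replicate 4 (-0.77, adjusted p = 0.0296) and on the deposited scale (-0.78, adjusted p = 0.0326). The members' medians were 0.06 in Scx+ and -0.36 in Scx-, beside 0.00 and 0.02 over all genes.

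A wider list of eicosanoid genes, chosen by role, held 48 listed genes other than the members, of which 41 were tested. Against the control 18 were higher and 10 lower in Scx+ at day 7 (median 0.73), 19 and 10 in Scx- at day 7 (0.63), 17 and 11 in Scx+ at day 14 (0.69) and 13 and 7 in Scx- at day 14 (0.57). Over all tested genes the shares passed in these comparisons were 61.3%, 58.2%, 55.9% and 43.8%, and the medians 0.18, 0.14, 0.15 and 0.12, so the counts lie near the background. They include genes that reached the filter on low values only through the group where they are high. No gene of it passed between genotypes, by limma, where 9 had an unadjusted p under 0.05 at day 7 and 5 at day 14, beside 1207 and 2429 of all 16619 tested genes. The authors' deposited table has 5 of the list under 0.05 at day 7, among 755 of its 15951 genes: Pla2g5 (-1.74 ± 0.39, SE, adjusted p = 7.46e-04), Pla2g7 (1.05 ± 0.31, adjusted p = 0.0223), Ephx2 (1.03 ± 0.31, adjusted p = 0.0257), Fpr2 (1.28 ± 0.41, adjusted p = 0.0373) and Dpep2 (0.91 ± 0.29, adjusted p = 0.0449), with Scx- higher where the value is positive. It has none at day 14. The values named below are those of the 3 most abundant genes of a role, by signal not corrected for length, and of genes that complete a step described above.

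Of 11 phospholipase genes tested, 3 were lower in Scx+ at day 7. Beside this and the counts of other roles below stand 33.8% higher and 27.5% lower over all tested genes there. The higher phospholipase genes are not counted, because Pla2g4c reached the filter on low values through the stimulated groups, where it is high. Its mean was 4 in the controls and 30.2 in Scx+ at day 7. Pla2g7, whose product cleaves oxidised phospholipids, rose by 1.53 ± 0.39 log2 units (SE, limma adjusted p = 0.00252) and the lysosomal Pla2g15 by 1.31 ± 0.16 (adjusted p = 2.66e-06), while Pla2g4e fell by 7.16 ± 1.33 (adjusted p = 2.67e-04) from 3693.6 to 5693.5 in the controls to 1.0 to 123.4. In Scx- at day 14 Pla2g4e did not pass by limma (-2.45 ± 1.33, adjusted p = 0.147), where the authors' deposited table calls it (-1.86 ± 0.65, adjusted p = 0.0198). Pla2g4a, the cytosolic phospholipase best known for releasing arachidonic acid, rose by 2.37 ± 0.46 in Scx+ and 2.34 ± 0.46 in Scx- at day 7, and by 1.99 ± 0.46 and 1.24 ± 0.46 at day 14 (adjusted p = 2.76e-04, 3.66e-04, 0.00151 and 0.0366). It stood at 101.1 to 500.9 in the controls and 889.5 to 1281.3 in Scx+ at day 7. Both day 14 groups overlapped the controls. The authors' deposited table does not call Pla2g4a in Scx- at day 14 (1.04 ± 0.60, adjusted p = 0.188).

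Among 7 other prostanoid synthase genes, 3 were higher and 2 lower in Scx+ at day 7. Ptgis, the prostacyclin synthase gene and the most abundant of them by the mean over all libraries, did not pass there (0.56 ± 0.44, SE, limma adjusted p = 0.283) and rose in Scx+ at day 14 by 1.07 ± 0.44 (adjusted p = 0.0473). Ptges3, which encodes a constitutive prostaglandin E synthase and cochaperone, rose by 0.64 ± 0.15 (adjusted p = 0.00114) and Fam213b fell by 3.41 ± 0.31 (adjusted p = 2.38e-07) in Scx+ at day 7. Ptges2, a further prostaglandin E synthase gene, went the other way from Ptges and Ptges3, at -1.23 ± 0.21 in Scx+ at day 7 (limma adjusted p = 1.02e-04). It was also lower in Scx- day 7, Scx+ day 14 and Scx- day 14 (-1.23, -1.16 and -0.94, adjusted p = 1.15e-04, 2.28e-04 and 0.00206). Hpgds, the synthase gene of prostaglandin D2 in blood cells, rose by 2.15 ± 0.34 in Scx+ and 2.72 ± 0.34 in Scx- at day 7 (adjusted p = 3.75e-05 and 4.34e-06). Of 3 other prostanoid receptor genes tested, Ptgfr, the prostaglandin F receptor, rose by 2.48 ± 0.45 (adjusted p = 1.69e-04) and Tbxa2r, the thromboxane receptor, by 1.63 ± 0.47 (adjusted p = 0.00578) in Scx+ at day 7. The prostacyclin receptor Ptgir was at -0.21 ± 0.35 (adjusted p = 0.630).

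For transport and breakdown, 1 of 5 genes was higher and 1 lower in Scx+ at day 7. Ptgr2, a reductase gene that acts after Hpgd, fell by 0.81 ± 0.13 (SE, limma adjusted p = 5.02e-05). Ptgr1, a further reductase gene of that step, was the higher one, at 2.13 ± 0.39 (adjusted p = 1.78e-04). The prostaglandin transporter Slco2a1 was at 0.01 ± 0.49 (adjusted p = 0.984) and the carbonyl reductase gene Cbr1 at -0.39 ± 0.17 (adjusted p = 0.0629). Ephx2, the gene of the soluble epoxide hydrolase, fell by 3.63 ± 0.46 (adjusted p = 5.27e-06), from 615.0 to 2574.4 in the controls to 62.9 to 145.9.

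On the leukotriene side, 3 of 6 other synthesis genes were higher and 2 lower in Scx+ at day 7. Lta4h, the leukotriene A4 hydrolase gene, rose by 0.95 ± 0.13 (SE, limma adjusted p = 8.56e-06), and Ggt5, which acts on leukotriene C4, by 1.59 ± 0.24 (adjusted p = 2.14e-05). Dpep1 did not pass, at 0.35 ± 0.51 (adjusted p = 0.565). The 2 lower genes were Ltc4s, the leukotriene C4 synthase gene, at -1.30 ± 0.45 (adjusted p = 0.0182), and Mgst2, at -2.70 ± 0.54 (adjusted p = 3.39e-04). In Scx- Ltc4s did not pass at day 7 or day 14 (-0.21 and -0.75, adjusted p = 0.711 and 0.184). Of 5 receptor genes tested, none was lower. The higher ones are not counted, because Fpr2 carries no test for the reason given below. Cysltr1, a receptor of the cysteinyl leukotrienes, rose by 1.1 ± 0.44 (adjusted p = 0.0383) and Ltb4r1, the leukotriene B4 receptor, by 2.29 ± 0.81 (adjusted p = 0.0213), by limma. Both genes overlapped the controls. Cysltr1 stood at 115.6 to 402.5 in the controls and 345.1 to 456.4 in Scx+ at day 7. Ltb4r1 stood at 0.0 to 89.0 and 72.3 to 131.3. The authors' deposited table calls neither gene there (0.87 ± 0.47 for Cysltr1 and 1.17 ± 0.96 for Ltb4r1). The lipoxin and formyl peptide receptor Fpr2 was listed at 0 in the 3 controls, at 44.5 to 91.0 in Scx+ and 109.2 to 303.7 in Scx- at day 7. Of 3 other lipoxygenase genes tested, Alox12 did not pass (0.22 ± 0.59, adjusted p = 0.757), while Aloxe3 was at 0.0 to 2.1 in the controls and 12.5 to 34.9 in Scx+ at day 7, and Alox12b at 26.3 to 158.8 and 0.0 to 1.9. Fpr2, Aloxe3 and Alox12b reached the filter on low values only through the groups where they are high, so no test of them is given against the control.

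**Figure D5:**
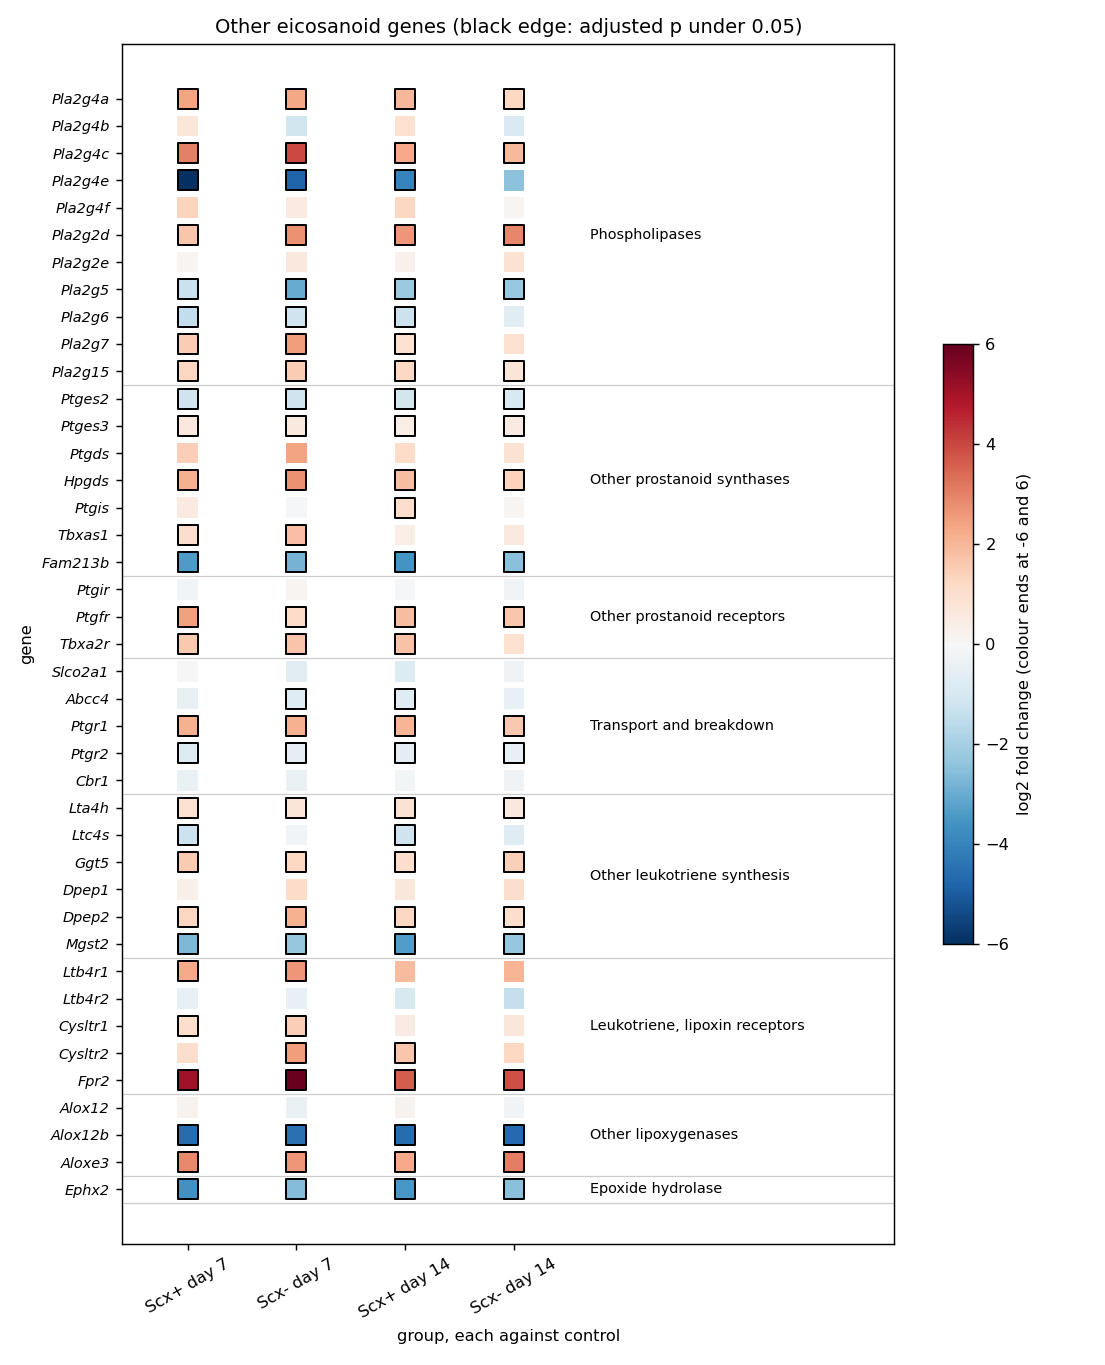
Log2 fold change against the control (colour, ending at -6 and 6) for the 41 tested genes of the wider eicosanoid list, by role, in the 4 stimulated groups. Black edges mark an adjusted p under 0.05 by limma. Among the genes that passed by limma in all 4 groups, Pla2g4a, Hpgds, Ptgfr and Ptgr1 are higher and Fam213b, Mgst2 and Ephx2 lower. This is a selection, and others not named here passed in all 4 groups as well. The edges of Pla2g4c, Fpr2, Aloxe3 and Alox12b carry no test for the reason given above.

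Between day 14 and day 7 in Scx-, 6 genes of the wider list were lower and none higher by limma, where 3.86% of all tested genes were lower and 1.40% higher: Fpr2 (-2.36 ± 0.51, SE, adjusted p = 0.0115), Pla2g7 (-1.56 ± 0.36, adjusted p = 0.0169), Hpgds (-1.34 ± 0.31, adjusted p = 0.0180), Tbxas1 (-1.22 ± 0.32, adjusted p = 0.0344), Dpep2 (-1.05 ± 0.25, adjusted p = 0.0207) and Pla2g15 (-0.79 ± 0.14, adjusted p = 0.00377). They were lower beside Alox5ap and 9 of the 12 macrophage markers, and the part of those cells was not tested. In Scx+ none passed, with 3 at an unadjusted p under 0.05, beside 1758 of all 16619 tested genes. The authors' deposited table has 1 under 0.05 there, Slco2a1 (-0.85 ± 0.27, adjusted p = 0.0391).

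The genes most like each member were ranked by the root mean square difference of their centred log2 values over the 19 libraries, among 13089 genes with a mean of at least 50. Ptger4 was nearest to Efemp2 (0.26), Bnc2 and Tubb2a (0.27 each), against its own SD of 1.0. Alox5ap was nearest to Rgs14 (0.22), Tnfaip8l2 (0.23) and Casp1 (0.24), with an SD of 0.71, and Ptges to Rilpl2 (0.24), Sdr42e1 and Ptpn9 (0.25 each), with an SD of 0.71. Ptgs2, with the largest SD (1.83), had no gene as close; its nearest were Sgo2a (0.72), Il1rn (0.75) and Ckap2 (0.78). Ptger2 was nearest to Dock10 (0.36), Ptger3 to Tubb4a (0.43), Alox5 to Slc25a30 (0.42), Ptgs1 to Rnf141 (0.26), Hpgd to Fundc1 (0.33) and Ptger1 to Tpst2 (0.12). These distances describe the libraries, which share groups and scaling, and carry no test.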

How the data were processed

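The material was RNA of mouse plantaris tendons, sequenced as 19 libraries; only processed tables were read. Per the submitters' processing notes, FastQC, STAR, DESeq2 and the build mm10 were used, with no version or role given. Per the labels, RNA was total RNA; the counter, strand and scaling are not given in the sources used here. One deposited table gives, for each gene in each library, a signal that the authors had already scaled. Its low values lie within 0.1 of a whole step in 38.6 to 76.9% of cases (chance gives 20%), so reads could not be recovered and depth is unknown. A second table deposited by the authors holds a mean signal, log2 fold changes with standard errors and adjusted p-values for 15951 genes; its adjustment is not stated.

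Libraries were put on a common scale with median-of-ratios factors (0.844 to 1.098) from the 13703 genes that no library lists at 0. Of 24972 genes, 4029 were at 0 throughout. A gene was tested if 3 or more libraries reached 10, which 16619 did, on log2(value + 2) with limma 3.58.1 in R 4.3.3 (trend, robust, all 5 groups in 1 fit, Benjamini-Hochberg adjustment over all tested genes, threshold 0.05), checked on simulated data. A fold change is on that scale and understates changes of low genes. The same-numbered libraries of different groups did not deviate together (36 pairs, correlations -0.43 to 0.35, 7 of them over 0.1), so numbers were not taken as pairs. Members and lists were chosen with earlier results of these data known. All 10 members are named, with genes most like them (mean of at least 50; the nearest 3 for Ptgs2, Ptges, Ptger4 and Alox5ap and, to keep the text short, the nearest 1 for the others) and, from the wider list, the 3 most abundant per role. Named outside that rule, after their values were seen, were Pla2g4a, Pla2g4c, Ptges2, Hpgds, Ptgr1, Ltc4s and Mgst2. So were the genes cited only from the authors' table and the 6 genes lower with time in Scx-. Positions and transcript lengths are from GENCODE M21 (GRCm38). Levels per kilobase use the longest coding transcript. One overlap of a member with another gene is not reported here.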

Additional observations from a re-analysis of the deposited data

Results flagged for a closer look

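In 4 of the 40 member groups of 4 libraries, the highest or lowest library stood apart from the others by more than the 95% critical value of Dixon's test. Chance gives this in about 1 in 20 groups. Ptger3 was low in Scx+ day 7 replicate 4 (43.4, where the group ended at 77.4) and high in Scx+ day 14 replicate 3 (251.9, where the group began at 63.3). Alox5 was high in Scx+ day 7 replicate 3 (573.7, from 337.6). Alox5ap was low in Scx+ day 14 replicate 4 (1693.4, with the group reaching 2437.5). That last library also had the lowest macrophage marker sum of its group (76548) and the highest muscle marker sum (3593838).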

How the results depend on the processing

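Of 2020 alternative values for the members, 1923 kept direction and side of the threshold, 67 lost the call, 16 gained one and 14 turned in sign; a turn of an uncalled value within 1 standard error of 0 counted as kept. Of the turns, 13 came with the macrophage markers as a covariate. These were Alox5ap in Scx- against Scx+ at day 7 (-0.08), in the change of that effect with time (0.14), against the control (-0.78 and -0.51 in Scx+ at days 7 and 14, -0.86 and -0.45 in Scx-) and between days (0.26 in Scx+, 0.41 in Scx-). The others were Hpgd between genotypes at day 7 (-0.03), Alox5 in the change of the genotype effect (0.21) and between days in Scx- (1.45), Ptger4 between days in Scx- (0.22) and Ptgs1 in Scx- at day 7 against the control (0.30). Library totals turned Hpgd in Scx- at day 7 (0.24). The count of members passed in Scx- at day 7 against the control was 1 with the macrophage covariate, and in Scx- at day 14 it was 5 in a fit of its own groups. In Scx+ over time it was 1 with sample quality weights. In Scx- over time it was 2 on the deposited scale, and 0 with either covariate, without Scx- day 14 replicates 1 and 2, or in a fit of its own groups. Leaving out 1 library gave 8 to 10, 6 to 8, 7 to 9 and 7 to 9 members against the control (Scx+ day 7, Scx+ day 14, Scx- day 7, Scx- day 14), 0 to 2 in Scx- over time, and 0 in Scx+ over time, between genotypes and for the interaction. On the deposited scale 993 genes passed between genotypes at day 14 (3.73% higher), against 86 (20.9% higher), 2604 between days in Scx- (4.3% higher), against 873 (26.6%), and 28 between days in Scx+ (14.3%), against 5 (40%). With library totals 8.45% of the calls between days in Scx- were higher. With the replicate number as a block, Hpgd in Scx+ at day 7 passed (-0.89; adjusted p = 0.0448) and Alox5ap in Scx+ at day 14 did not (0.79; adjusted p = 0.0576); no other call of a member changed, and 2 of 19 libraries were most like their own number. Except where the setting itself removes libraries, the cause was not tested.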
